A study of Mus musculus with 8 samples.

Results

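Some small RNAs that the deposited tables list as miRNAs have hairpins inside snoRNA or scaRNA genes. The 10 names of this kind described here in mouse liver are both arms of miR-1839, miR-1843a, miR-1843b and miR-3068, with miR-3069-3p and miR-1291. They were chosen by name, and all 10 were found among the 862 names listed in any of the 8 libraries. Libraries were made from male C57BL/6J mice, 8 weeks old at the start, kept for 12 weeks on either ad libitum feeding (AL) or caloric restriction (CR). CR meant 20% less food in the first week and 40% less in the remaining 11. Whole liver gave 1 small RNA library per diet, each from a pool of 3 RNA samples, and liver mitochondria, purified as mitoplasts by differential centrifugation, gave 3 libraries per diet. Whether the mitochondrial replicates are separate animals is not said in the labels, and p-values therefore cover only the spread among these libraries, which may be technical.

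Box H/ACA snoRNAs guide the conversion of uridine to pseudouridine in ribosomal RNA, and scaRNAs do similar work on spliceosomal RNAs in Cajal bodies. An H/ACA RNA folds into a pair of hairpins, the first followed by a short H box and the second by the triplet ACA close to the 3′ end. Some such hairpins are also cut by Dicer, without the Drosha and DGCR8 complex that makes canonical miRNA precursors, into small RNAs that can be loaded into Argonaute proteins. A read with such a sequence therefore lies both in a miRNA name and in its host RNA, and which of these molecules it came from was not tested.

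The annotation bore out the label for each member. Every one of the 10 mature sequences lay wholly within a transcript annotated as scaRNA (4 hosts) or snoRNA (2 hosts) in GENCODE M21 (GRCm38). The mature sequences are given 5′ to 3′ as deposited, with the seed (bases 2 to 8, the part that pairs with targets) in capitals, because the seed decides which names could act alike.
miR-1839-5p: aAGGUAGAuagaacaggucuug
miR-1839-3p: aGACCUACuuaucuaccaacagc
miR-1843a-5p: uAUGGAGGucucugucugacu
miR-1843b-5p: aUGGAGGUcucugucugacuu
miR-1843a-3p: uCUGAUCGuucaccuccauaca
miR-1843b-3p: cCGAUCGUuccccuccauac
miR-3068-5p: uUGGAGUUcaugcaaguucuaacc
miR-3068-3p: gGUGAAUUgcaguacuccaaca
miR-3069-3p: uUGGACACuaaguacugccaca
miR-1291: aUGGCUCUuacugaagacuagcaguu

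No 2 of these seeds were the same, and no other name in the 8 libraries carried any of them. The 5p names of miR-1843a and miR-1843b share 20 bases, with miR-1843b-5p starting 1 base later, so their seeds are shifted by 1 base against each other. The whole miR-1843b-5p sequence occurs in the hairpins of both Mir1843a and Mir1843b, whereas miR-1843a-5p occurs only in that of Mir1843a among the RefSeq hairpins (GRCm38.p6). Reads of miR-1843b-5p can therefore not be assigned to 1 of the 2 genes, and its values are uncertain in that respect. The 3p names differ at more positions (18 of 22 aligned positions identical) and each occurs in 1 hairpin.

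The host RNAs are shown with the named small RNAs in capitals, in the DNA letters of the annotation, because the arms sit at the same place in most of them. The miR-1839 host is a scaRNA that carries the symbol Mir1839 (chr7:81529855-81529981, plus strand). It lies within the lincRNA gene 2900076A07Rik and overlaps an exon of that gene. The other hosts shown lie in introns of protein-coding genes. Scarna3b is in Dcaf5 (chr12:80391613-80391751, minus strand), where it also overlaps an exon of the gene CT030161.1. Scarna3a is in Cop1 (chr1:159340283-159340422, plus strand). The snoRNA with the symbol Mir3068 is in Alkbh1 (chr12:87437682-87437817, minus strand), where it also overlaps an exon of the lincRNA gene Gm29362. Snora34 is in Kansl2 (chr15:98519716-98519853, minus strand). Coordinates are those of GRCm38 and not of the authors' mm9 alignment.
Mir1839 scaRNA: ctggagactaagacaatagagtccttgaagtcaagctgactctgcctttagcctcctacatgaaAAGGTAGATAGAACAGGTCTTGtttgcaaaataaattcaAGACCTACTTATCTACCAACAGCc
Scarna3b: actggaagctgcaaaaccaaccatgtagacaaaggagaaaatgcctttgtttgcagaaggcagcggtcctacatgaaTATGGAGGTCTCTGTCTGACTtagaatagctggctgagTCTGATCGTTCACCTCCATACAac
Scarna3a: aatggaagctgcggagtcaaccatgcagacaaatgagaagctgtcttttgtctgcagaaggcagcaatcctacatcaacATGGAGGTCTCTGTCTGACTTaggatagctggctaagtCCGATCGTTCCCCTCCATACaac
Mir3068 snoRNA: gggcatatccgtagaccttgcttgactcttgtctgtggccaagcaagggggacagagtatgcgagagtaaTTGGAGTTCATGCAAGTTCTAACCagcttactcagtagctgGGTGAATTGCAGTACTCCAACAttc
Snora34: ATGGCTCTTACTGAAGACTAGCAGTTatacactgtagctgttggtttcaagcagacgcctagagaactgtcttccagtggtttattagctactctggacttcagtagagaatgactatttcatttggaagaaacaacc

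In the 4 hosts with a named pair of arms, the 5p arm began at base 65 (Mir1839), 78 (Scarna3b), 80 (Scarna3a) or 71 (Mir3068), past the middle of the RNA, and the 3p arm ended 1, 2, 3 and 3 bases before the 3′ end. miR-3069-3p, from Scarna13 in an intron of Snhg10 (chr12:105031075-105031349, minus strand, 275 bases), also ended 3 bases before the 3′ end of its host. The last ACA triplet of the host lay inside miR-1839-3p, miR-1843a-3p, miR-3068-3p and miR-3069-3p and partly inside miR-1843b-3p. miR-1291 stood apart, since it is the first 26 bases of Snora34, 112 bases from the 3′ end. Its annotated hairpin of 117 bases has 92 bases in Snora34 and the others upstream of it. The letters ACA with exactly 3 bases after them closed 4 of the 6 hosts, with the others at 2 bases. Among all annotated transcripts searched on their own strand, the last ACA had exactly 3 bases after it in 47.1% of 51 scaRNAs and 17.6% of 1507 snoRNAs. Scarna3b and Scarna3a are near copies, with 120 of 140 aligned positions identical (85.7%).

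**Figure D1:**
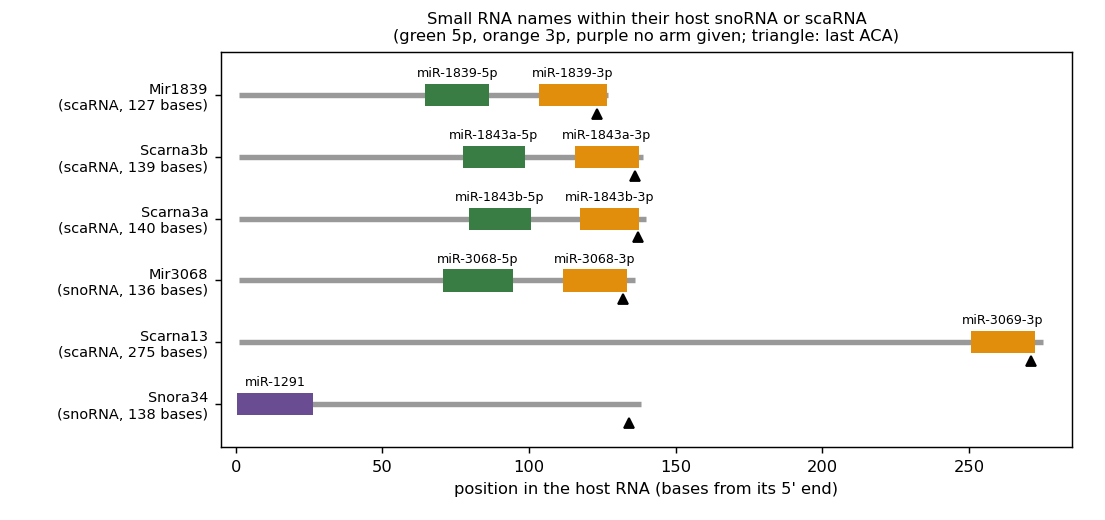
Position of each small RNA name (coloured boxes) in its host RNA (grey line), in bases from the host's 5′ end, with a triangle at the last ACA triplet. The 3p names end within 3 bases of the 3′ end, and miR-1291 covers bases 1 to 26 of Snora34.

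The libraries held 1070762 to 1577691 miRNA reads in mitochondria and 2431564 and 3242002 in the AL and CR pools. Values are reads per 1000000 (RPM), and a read was worth 0.308 to 0.934 RPM, so 3 reads, taken as the floor, were 0.925 to 2.80 RPM. miR-122, the defining hepatocyte miRNA, took 25.5% and 26.3% of the reads in the AL and CR pools. Among mitochondrial libraries its share was 38.0% to 45.3% for AL and 53.3%, 25.2% and 58.1% for CR, which moves the RPM of every other name. CR mitochondria replicate 2 was the library with the low share. It also held the highest summed level of the listed pancreas markers (miR-375, miR-216a, miR-216b and miR-217), 98.9 RPM, against at most 5.48 RPM in AL mitochondria and 6.99 and 2.47 RPM in the pools.

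The 10 names together made up 1258 to 1395 RPM in AL mitochondria, 826 to 981 RPM in CR mitochondria, and 1457 and 1322 RPM in the AL and CR pools, so about 0.0826% to 0.146% of each library's reads. Most of it was 5p reads: miR-1839-5p, miR-1843a-5p and miR-1843b-5p gave 80.4% to 90.2% of the sum in each library. In AL mitochondria miR-1839-5p averaged 606 ± 34.4 RPM (SD, n = 3), miR-1843a-5p 336 ± 53.0 RPM and miR-1843b-5p 205 ± 35.5 RPM, and the libraries of these 3 names did not overlap. They were followed by miR-1843a-3p at 54.9 ± 22.1 RPM and miR-3068-5p at 54.7 ± 9.49 RPM, which overlapped. miR-1839-3p (26.9 ± 0.901 RPM) and miR-3068-3p (25.4 ± 5.34 RPM) overlapped as well, as did miR-1843b-3p (17.3 ± 5.39 RPM) and miR-1291 (12.4 ± 2.07 RPM). These levels count reads per name, for sequences of 20 to 26 bases, with no scaling for length. miR-3069-3p was at or under the floor everywhere, with 4 reads in all 8 libraries (1 in the AL pool, 2 in AL replicate 2 and 1 in CR replicate 3), and was not tested.

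**Figure D2:**
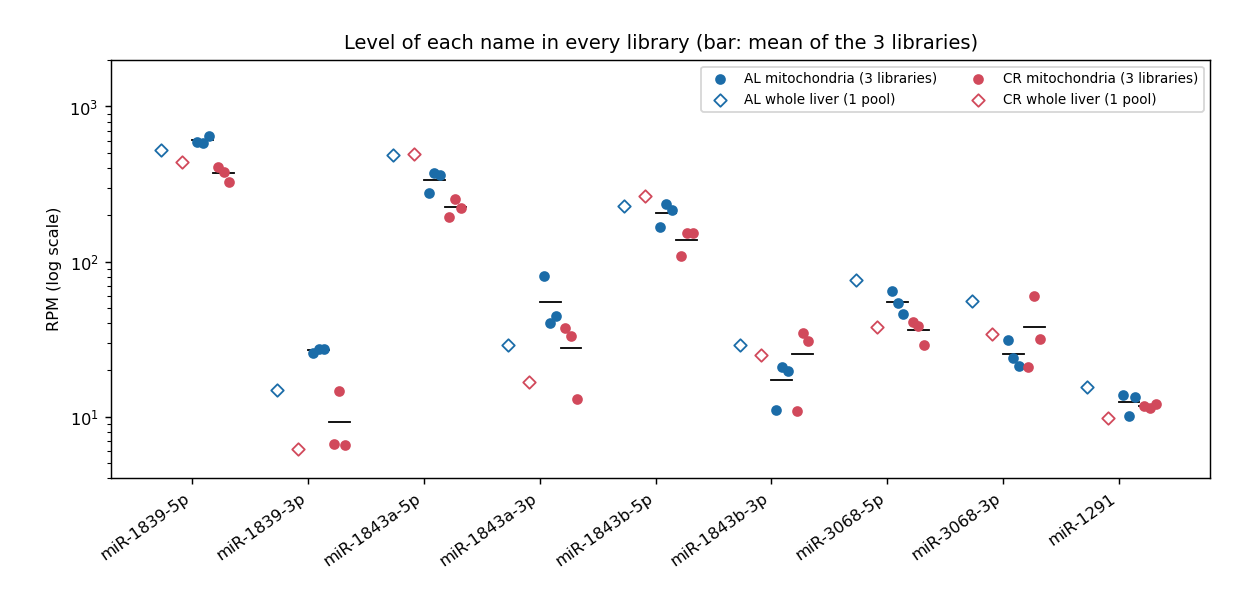
RPM (log scale) of 9 names in each of the 8 libraries, with open diamonds for the pools, filled circles for mitochondrial libraries, blue for AL, red for CR and a bar at the mean of 3 libraries. miR-1839-5p is the highest name in AL mitochondria (606 RPM), and both miR-1839 arms are lower in each CR than in each AL mitochondrial library.

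The first comparison asks how small RNA in liver mitochondria differs under caloric restriction. None of the 9 tested members passed, although several were lower in each CR library than in each AL library. Both arms of miR-1839 showed this. miR-1839-5p stood at 590, 584 and 646 RPM in AL replicates 1 to 3 and at 408, 380 and 325 RPM in CR replicates 1 to 3. Its log2 fold change was -0.71 (SE 0.31, 95% interval -1.36 to -0.06, adjusted p = 0.329 by limma-trend). The rarer arm miR-1839-3p stood at 25.8, 27.4 and 27.4 RPM under AL (28, 30 and 39 reads) and at 6.66, 14.6 and 6.54 RPM under CR (8, 23 and 7 reads). Its log2 fold change was -1.53 (SE 0.44, 95% interval -2.46 to -0.60, adjusted p = 0.108), the lowest p of the members. In both arms the AL libraries were close together and the CR libraries all below them.

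Both arms of miR-1843a, from Scarna3b, were also lower in each CR library, with wider spread and without passing the test. miR-1843a-5p stood at 275, 370 and 363 RPM under AL and at 194, 255 and 223 RPM under CR, without overlap. Its log2 fold change was -0.58 (SE 0.32, adjusted p = 0.499 by limma-trend). miR-1843a-3p stood at 80.3, 40.2 and 44.3 RPM under AL and at 37.5, 33.0 and 13.1 RPM under CR. AL replicate 1 was high and CR replicate 3 low in this arm, and the log2 fold change was -1.01 (SE 0.45, adjusted p = 0.329). Without AL replicate 1 it was -0.71, and without CR replicate 3 it was -0.56.

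The Scarna3a names had fold changes of opposite sign. miR-1843b-5p, whose sequence is in both genes, stood at 166, 236 and 214 RPM under AL and at 108, 153 and 153 RPM under CR, again without overlap (a log2 fold change of -0.57, SE 0.34, adjusted p = 0.499 by limma-trend). miR-1843b-3p, whose sequence is in the Mir1843b hairpin only, stood at 11.1, 21.0 and 19.7 RPM under AL and at 10.8, 34.9 and 30.8 RPM under CR. Its groups overlapped, and its log2 fold change was 0.43 (SE 0.48, adjusted p = 0.750), with an interval from -0.59 to 1.45.

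The arms of miR-3068 were split in the same way. miR-3068-5p stood at 64.6, 53.9 and 45.7 RPM under AL and at 40.8, 38.7 and 29.0 RPM under CR, without overlap (a log2 fold change of -0.59, SE 0.37, adjusted p = 0.531 by limma-trend). miR-3068-3p stood at 31.4, 23.7 and 21.1 RPM under AL and at 20.8, 60.2 and 31.8 RPM under CR, where CR replicate 2 was high (a log2 fold change of 0.44, SE 0.44, adjusted p = 0.720). Without that library it was 0.04. miR-1291, from the other end of its host, had the narrowest range: 13.8, 10.05 and 13.4 RPM under AL and 11.7, 11.4 and 12.1 RPM under CR (a log2 fold change of -0.06, interval -0.97 to 0.84, adjusted p = 0.970). Its direction turned upward with DESeq2 size factors (0.16) and with TMM factors (0.14).

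Of the 9 tested members 0 passed an adjusted p of 0.05 by limma-trend, edgeR or DESeq2. Of all 391 tested names 0.512% passed by limma-trend, 7 names by edgeR and 11 by DESeq2. At an unadjusted p under 0.05 were 3 members by limma-trend, all lower under CR (both miR-1839 arms and miR-1843a-3p), where 9.46% of all tested names were lower at that level. By edgeR and DESeq2 it was 1 of the 9 members each, miR-1839-3p, where 50 and 41 of all 391 names were at that level in either direction. All 3 CR libraries lay below all 3 AL libraries in 6 of the 10 members, against 14.3% of all tested names. This count rests on the scale. With upper quartile factors it was 4 (both miR-1839 arms, miR-1843a-3p and miR-3068-5p), against 12.0% of all tested names on that scale. Both miR-1839 arms were left with DESeq2 size factors (9.21% of all names) and as RPM outside miR-122 (9.46%), and miR-1839-3p alone with TMM factors (7.67%). The median log2 fold change of the 9 members was -0.58, beside -0.17 over all tested names, and with DESeq2 size factors -0.34 beside 0.03. As RPM outside miR-122 the 10 names together did not overlap, at 2028 to 2499 under AL and 1312 to 1972 under CR. Nor did their sum overlap with upper quartile or DESeq2 size factors. With TMM factors it did, since the sum was higher in CR replicate 3 than in AL replicate 1.

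Other values differed between the diets in the same libraries, in part with overlap. The summed level of the 11 leukocyte and Kupffer cell names was 8154 to 11108 RPM in AL and 3021 to 4946 RPM in CR mitochondria, and miR-146a-5p made up 90.6% to 96.7% of it in the mitochondrial libraries. All CR libraries lay below all AL libraries in 2 of 9 tested names (miR-146a-5p and miR-142a-5p) and above them in 1 (miR-150-5p), and no name was at 0 throughout. Of all 391 tested names, 56 lay below and 20 above in this way. Without miR-146a-5p the sum was 368 to 545 RPM under AL and 258 to 355 RPM under CR. In each library miR-142a-3p and miR-142b had equal values, so the same reads may be counted under both names in these sums and counts. The 10 stellate cell and fibroblast names summed to 35622 to 47454 RPM under AL and 25661 to 44663 RPM under CR, which overlapped. In 5 of 9 tested names all CR libraries lay below all AL libraries, and in 0 above. Of these names miR-199a-3p was called with the diet (log2 fold change -1.64, adjusted p = 0.0141 by limma-trend). The part of these, and of the miR-122 share, in the members' values was not tested. In RNA from whole tissue or a fraction, fewer source cells and less of an RNA per cell cannot be told apart.

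**Figure D3:**
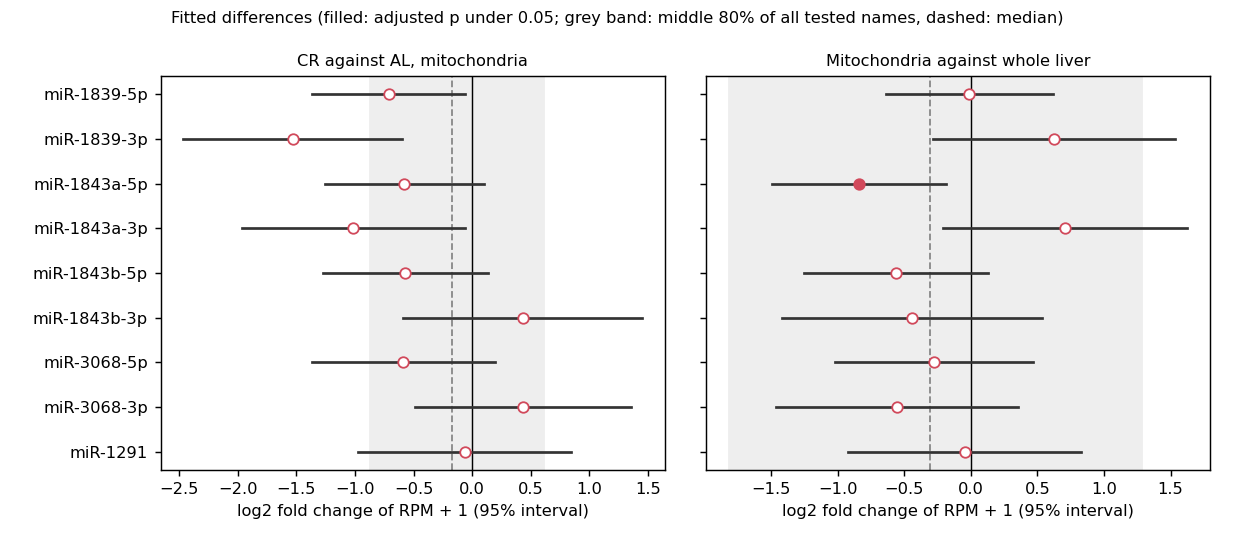
Log2 fold change of RPM + 1 with its 95% interval (limma-trend) for the 9 tested names, for CR against AL in mitochondria (left) and mitochondria against whole liver (right). The filled point is miR-1843a-5p at -0.84 in the right panel, the grey band holds the middle of all tested names and the dashed line is their median (-0.17 left, -0.31 right).

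The balance of the arms within a hairpin does not depend on how a library is scaled. In miR-3068 the 5p arm took 67.3%, 69.4% and 68.4% of the reads of both arms in the AL mitochondrial libraries and 66.2%, 39.1% and 47.7% in the CR libraries. CR replicate 1 was close to the AL libraries and the other CR libraries were far below, at 74, 156 and 65 reads of both arms. The mean difference was -17.4 percentage points. In miR-1843b the 5p share was 93.8%, 91.8% and 91.6% under AL and 90.9%, 81.5% and 83.2% under CR, a difference of -7.16 points. Reads of miR-1843b-5p can come from either miR-1843 hairpin, so this share compares names and may not be the balance within a hairpin. The miR-1843a share would lack any such reads of its own hairpin. In miR-1839 it was higher under CR, at 95.8%, 95.5% and 95.9% under AL and 98.4%, 96.3% and 98.03% under CR, a difference of 1.83 points. In miR-1843a the groups overlapped, at 77.4%, 90.2% and 89.1% under AL and 83.8%, 88.5% and 94.5% under CR.

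For the 3 hairpins without overlap the exact two-sided permutation p was 0.1 (adjusted over 4 hairpins 0.133), the smallest p that 3 against 3 libraries allow, and for miR-1843a it was 0.7. Among all 98 hairpins with at least 20 reads of both arms in each mitochondrial library, 11.2% did not overlap between the diets in either direction. A limma fit of the log2 ratio of the arms over those hairpins, added after the data were seen, called 0 of 98, with 12 at an unadjusted p under 0.05. None of the 4 was among those, at adjusted p = 0.463 for miR-1843b and miR-3068, 0.504 for miR-1839 and 0.754 for miR-1843a. No other tool was run on the arms. Without CR replicate 2 the differences were -11.4 points for miR-3068, -5.30 for miR-1843b and 2.46 for miR-1839. Leaving out CR replicate 1 gave -24.98 points for miR-3068.

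**Figure D4:**
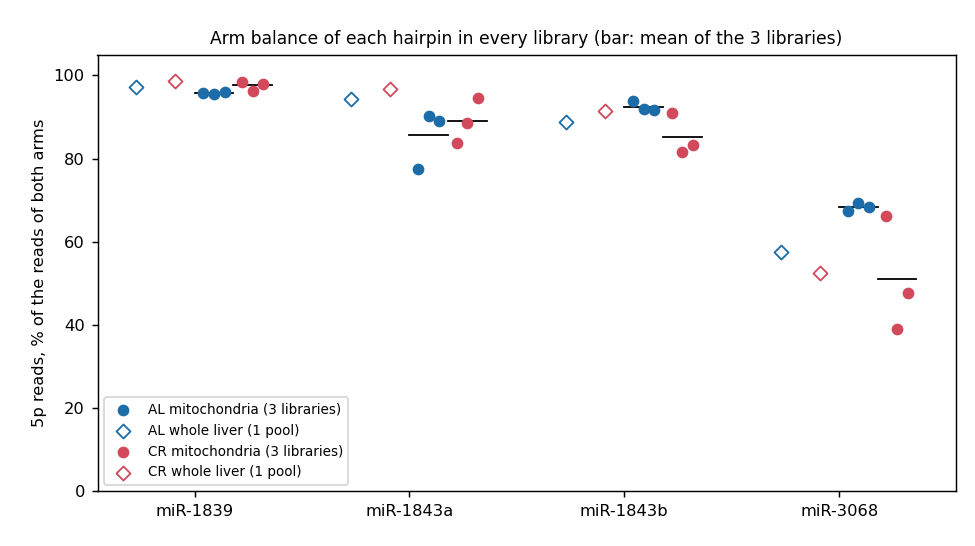
Reads of the 5p arm as a percentage of the reads of both arms in each library, for the 4 hairpins with both arms listed (symbols as in the plot of levels). miR-3068 has the lowest share in each library, 67.3% to 69.4% in AL and 39.1% to 66.2% in CR mitochondria. The 5p reads of miR-1843b can come from either miR-1843 hairpin.

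The whole-liver pools show the same names in the tissue before fractionation, with 1 library per diet and thus no test of the diet. Ratios below carry exact 95% intervals, which cover counting error only. miR-3068-5p was at 76.1 RPM with AL feeding and 37.6 RPM with CR, 2.02-fold lower in the latter pool (1.60 to 2.56). miR-3068-3p was at 55.9 and 33.9 RPM, 1.65-fold lower (1.27 to 2.14). For miR-1839 the arms differed in their ratio. miR-1839-5p was at 523 and 436 RPM (a CR to AL ratio of 0.834, 0.772 to 0.900), and miR-1839-3p at 14.8 and 6.17 RPM (36 and 20 reads, 2.40-fold lower, 1.35 to 4.38). Its order between the pools depended on the scale: with TMM factors miR-1839-5p was at 403 in the AL and 416 in the CR pool.

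miR-1843a-3p was at 28.8 RPM in the AL and 16.7 RPM in the CR pool (1.73-fold lower, 1.19 to 2.51), whereas its other arm miR-1843a-5p was at 485 and 493 RPM, a ratio of 1.02 (0.942 to 1.10). miR-1843b-5p was at 229 and 264 RPM, a ratio of 1.15 (1.03 to 1.28), and miR-1843b-3p at 28.8 and 24.98 RPM, a ratio of 0.868 (0.622 to 1.21). The log2 ratio of miR-1843b-3p turned from -0.20 to 0.10 with TMM factors. miR-1291 was at 15.6 and 9.87 RPM (38 and 32 reads), with an interval of the ratio from 0.382 to 1.04. Of the 9 members that reached 10 RPM in either pool, 5 were lower by 1.5-fold or more in that of CR, against 28.0% of the 243 names at that level. The count of 5 became 3 with DESeq2 size factors, against 17.3% of all names on that scale, and 2 with TMM or upper quartile factors, against 11.1% on each.

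**Figure D5:**
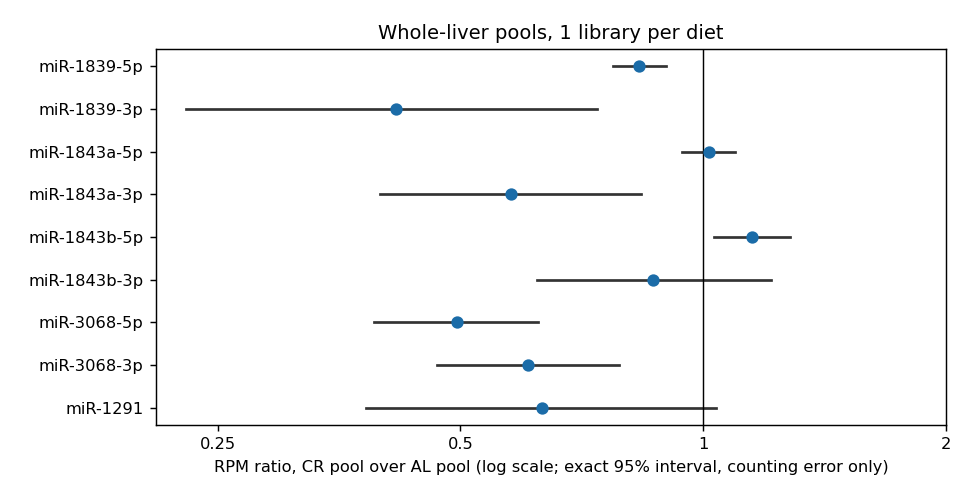
RPM ratio of the CR to the AL whole-liver pool (log scale) with its exact 95% interval for the 9 names that reached 10 RPM in either pool. miR-1839-3p (0.417) and miR-3068-5p (0.495) lie lowest, and the 5p names of miR-1843a and miR-1843b lie above 1.

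The comparison of mitochondria with whole liver used all 8 libraries in a fit that also held the diet. The 2 pools, 1 per diet, were assumed to vary like the mitochondrial libraries. miR-1843a-5p was lower in mitochondria. It stood at 485 and 493 RPM in whole liver and at 194 to 370 RPM in the 6 mitochondrial libraries, all below both pools. Its log2 fold change was -0.84 (SE 0.31, 95% interval -1.50 to -0.19, adjusted p = 0.0462 by limma-trend). It was the 1 of 9 tested members called, against 21.6% of all 417 tested names called lower. Likewise it was 1 member of 10 with all mitochondrial libraries below both pools, against 27.1% of the tested names. The call ended with no filter on low values (adjusted p = 0.0529), with each other scaling tried (adjusted p = 0.150 to 0.358), with edgeR (0.299) or DESeq2 (0.174), and without AL replicate 1 (0.0553), AL replicate 3 (0.0713), CR replicate 1 (0.0878) or CR replicate 3 (0.0707). As RPM outside miR-122 its libraries overlapped with the pools.

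The opposite arm from the same hairpin, miR-1843a-3p, had 28.8 and 16.7 RPM in whole liver and 13.1 to 80.3 RPM in mitochondria (log2 fold change 0.71, SE 0.44, adjusted p = 0.228 by limma-trend). Taken from the reads of both arms, the 5p share of miR-1843a was 94.4% and 96.7% in the pools and 77.4% to 94.5% in mitochondria, where CR replicate 3 passed the AL pool (exact two-sided permutation p = 0.143, adjusted over 4 hairpins 0.571). miR-1839-3p had a log2 fold change of 0.62 (SE 0.43, adjusted p = 0.286). With edgeR on the recovered reads, miR-1839-3p (log2 fold change 1.15, adjusted p = 0.0403) and miR-1843a-3p (1.25, 0.0288) were higher in mitochondria, the latter also with DESeq2 (1.13, 0.0304). These were 2 and 1 of the 9 tested members, where edgeR called 97 and DESeq2 78 of all 417 tested names higher.

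The other members were not called by limma-trend. miR-1839-5p was at nearly the same level in both fractions on the deposited scale, with a log2 fold change of -0.01 (interval -0.64 to 0.61), which was 0.30 with DESeq2 size factors. Log2 fold changes were -0.56 for miR-1843b-5p and for miR-3068-3p, -0.44 for miR-1843b-3p, -0.28 for miR-3068-5p and -0.05 for miR-1291. Those of miR-3068-5p and miR-1291 turned upward with DESeq2 size factors (0.03 and 0.24), TMM factors and as RPM outside miR-122. The median of the 9 members was -0.28 beside -0.31 over all tested names. Of the leukocyte and Kupffer cell names, 1 of 9 tested was called by limma-trend, miR-146a-5p, which was higher in mitochondria (log2 fold change 3.54). The median of the 9 was -0.40, with miR-142a-5p at -0.93 and miR-155-5p at -1.28. The part of these names, and of the lower depth of the mitochondrial libraries, was not tested.

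The ratio of miR-1843a-5p to miR-1843b-5p reads, of which the second starts 1 base later, was lower in each mitochondrial library than in either pool. It was 2.11 in the AL and 1.87 in the CR pool, and 1.46 to 1.79 in the mitochondrial libraries (mean 1.64 ± 0.115, SD, n = 6; exact two-sided permutation p = 0.0714, the smallest that 6 against 2 libraries allow). Between the diets in mitochondria it was 1.64 ± 0.0665 under AL and 1.64 ± 0.169 under CR (SD, n = 3 each). This ratio was examined after its values were seen.

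Whether the diet acted differently on the fractions was tested as an interaction over all 8 libraries. The limma-trend, edgeR and DESeq2 fits called 0 of the 9 tested members, and limma-trend called 0.0% of 417 names, with 0 members and 5 names at an unadjusted p under 0.05. The intervals were wide. For miR-3068-3p, lower in the CR pool and higher on average in CR mitochondria, the difference of the log2 fold changes was 1.14 (SE 0.88, interval -0.70 to 2.98, adjusted p = 0.998). For miR-1843b-5p, higher in the CR pool and lower in CR mitochondria, it was -0.77 (SE 0.67, interval -2.18 to 0.64).

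The files hold 11 other names within a snoRNA or scaRNA transcript, found from the sequences and not from their values: both arms of miR-664 (Snora36b), miR-677, miR-3084 (Snora19) and miR-6516, with miR-5121 (Snord33), miR-3535 and miR-466i-5p. They were rarer, with 87.8 to 123 RPM together in the mitochondrial libraries and 170 and 141 RPM in the pools. Of the 9 tested with the diet in mitochondria none passed by limma-trend, 1 stood at an unadjusted p under 0.05 (miR-6516-3p, log2 fold change -1.99, SE 0.72, adjusted p = 0.218), and the median was 0.18. By edgeR and DESeq2 none passed either, with 1 (miR-6516-3p) and 0 at an unadjusted p under 0.05. All CR libraries lay below all AL libraries in 0 of the 9 and above them in 1, miR-6516-5p. Of all 391 tested names, 56 lay below and 20 above. miR-6516-5p stood at 1.41 to 1.85 RPM under AL and 1.87 to 2.50 RPM under CR. These values are at or under the floor of 3 reads in each of the mitochondrial libraries, so their order carries little weight. Neither arm of miR-664 passed with the diet, with 21.6 ± 13.9 and 9.99 ± 6.18 RPM for miR-664-5p and 9.56 ± 3.85 and 16.2 ± 9.20 RPM for miR-664-3p under AL and CR (SD, n = 3 each). Against whole liver, 1 of 10 tested names passed by limma-trend, miR-3535, which was lower in mitochondria (log2 fold change -1.05, adjusted p = 0.0413). Only its mature sequence lies in a snoRNA (Gm24148), since its annotated hairpin overlaps none, as is the case for miR-466i-5p with a scaRNA. The call was lost by edgeR (adjusted p = 0.215) and DESeq2 (0.161), both of which called miR-664-5p higher in mitochondria instead.

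The canonical route runs through Drosha with DGCR8 and then Dicer. Among 10 listed names of other miRNAs that skip a part of it (miR-451a skips Dicer, not Drosha), 5 were tested with the diet. None passed by limma-trend, edgeR or DESeq2, with 2, 0 and 0 at an unadjusted p under 0.05. miR-320-3p had means of 149 ± 38.6 RPM (AL) and 85.6 ± 10.9 RPM (CR) (log2 fold change -0.77, adjusted p = 0.329) and miR-484 14.4 ± 4.76 and 5.29 ± 4.84 RPM (-1.51, adjusted p = 0.230). Against whole liver 1 of 6 passed, miR-484, lower in mitochondria at a log2 fold change of -3.42.

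The names whose levels over the 8 libraries were most like those of the 3 most abundant members were found by the root mean square difference of log2(RPM + 1), each profile centred on its mean. For miR-1839-5p they were miR-30b-3p (0.11), miR-10a-3p (0.18) and miR-214-3p (0.21), where the median over all other names was 0.74. miR-30b-3p averaged 25.7 RPM in AL and 17.9 RPM in CR mitochondria and stood at 25.5 and 20.7 RPM in the pools. The nearest name to miR-1843a-5p was miR-1843b-5p and the reverse (0.15), followed for both by miR-191-5p and miR-99b-3p (0.20 to 0.23).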

How the data were processed

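Per the file headers and values, each deposited table gives 1 library's miRNA names, mature sequences and RPM, the reads per 1000000 that the authors assigned to the listed names, with names at 0 left out. The headers say tpm, but each column sums to 1000000, without any length term. The authors used Bowtie and mm9, per the submitters' processing notes; the version, the assignment to names, multiple hits and the use of strand are not given in the sources used here. All deposited RPM values were whole multiples of the smallest in their library (100% within 0.01 read), so reads were recovered by division.

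The main test was limma-trend on log2(RPM + 1), in limma 3.58.1 under R 4.3.3. Names entered it if 3 or more libraries of the fit had 1 RPM or more. P-values were adjusted by Benjamini-Hochberg and called under 0.05. A fold change on this scale understates that of low names. On recovered reads, edgeR 4.0.16 (quasi-likelihood, TMM) and DESeq2 1.42.0 served as alternatives, beside other pseudocounts, filters and scalings and leaving out each mitochondrial library. The limma fit was tested on simulated data. Pool ratios have exact Clopper-Pearson 95% intervals, and arm shares an exact permutation test (Python 3.11.15, scipy 1.17.1). Members were matched by name, and their sequences searched in 1558 snoRNA and scaRNA transcripts and the RefSeq hairpins. All 10 members matched a hairpin and 9 a RefSeq mature sequence; miR-1839-3p is given from the deposited sequence. All 10 members are named, and other names follow the lists and the likeness rule described with them. The members, lists and tests were chosen with earlier results of these data known.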

Additional observations from a re-analysis of the deposited data

How the results depend on the processing

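In mitochondria 0 members were called with the diet under all 18 alternatives, and the log2 fold change kept its direction in each for 8 of the 9, from -1.88 to -1.21 for miR-1839-3p (adjusted p 0.0538 to 0.346) and from -0.78 to -0.47 for miR-1839-5p (0.149 to 0.653). That of miR-1291 turned to 0.16 with DESeq2 size factors or DESeq2 itself (0.163 and 0.158), 0.137 with TMM factors, 0.0757 outside miR-122, 0.114 with edgeR and 0.0158 without AL replicate 1 (-0.197 to 0.0158 when a library was left out). Over all names, 0 to 11 were called in place of 2. With the replicate number as a block (replicate block), 0 members were again called, and miR-1839-3p stood at -1.53 with adjusted p = 0.0959; same-numbered libraries deviated with correlations of 0.364, 0.0752 and 0.107, so the numbers were not taken as pairs, and replicate 2 of AL went best with replicate 3 of CR (0.215).

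Against whole liver 1 member was called as deposited, 0 without a filter or with DESeq2 size, TMM or upper quartile factors or outside miR-122, 2 with edgeR, and 0 to 1 when a library was left out. Over all names 44 higher and 90 lower became 65 and 65 outside miR-122, 62 and 72 with DESeq2 size factors and 97 and 70 with edgeR, and the median log2 fold change moved from -0.31 to -0.01, -0.08 and 0.13. Values that turned upward, in the order DESeq2 size factors, TMM, upper quartile, outside miR-122, edgeR, DESeq2, were 0.297, 0.283, 0.209, 0.405, 0.424 and 0.299 for miR-1839-5p (0.0440 without CR replicate 3, the other libraries left out giving down to -0.0476) and 0.240, 0.229, 0.160, 0.339, 0.370 and 0.253 for miR-1291 (0.0324 without AL replicate 2, others down to -0.0738). For miR-3068-5p they were 0.0269, 0.0138, 0.133, 0.139 and 0.0221, without upper quartile, and for miR-1843b-3p 0.0628 with edgeR. For the interaction, 0 members were called in all 17 alternatives; with no filter 129 of 862 names were. That of miR-1843a-3p turned to 0.0441 without AL replicate 1 and 0.193 without CR replicate 3 (others down to -0.532), its 5p share with the diet to -0.727 points without AL replicate 1 (others up to 5.93), and the 5p share of miR-1843b between fractions to 0.153 points without CR replicate 2 (others down to -2.30).

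The 6 members without overlap became 4 (upper quartile factors), 2 (DESeq2 size factors, outside miR-122) or 1 (TMM), and stayed 6 without CR replicate 2, where 23.8% of all names did not overlap in place of 14.3%. The 5 members that were lower by 1.5-fold or more in the CR than the AL pool became 3 (DESeq2 size factors) or 2 (TMM, upper quartile). The cause of these changes was not tested. miR-1839-3p had 7 to 39 reads in a mitochondrial library.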
